A study of Homo sapiens with 9 samples.

Results

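Described here are the sh1 and shNT libraries of RT112, which is an established line of human bladder carcinoma cells. They make up 6 of the 9 libraries of the series. Cells of the shNT group carried a control short hairpin RNA, and cells of the sh1 group carried the first of 2 hairpins against STAG2. All groups came from the same line, were grown with 10% heat-inactivated serum, were transduced, and were then kept in medium without serum. Libraries of the second STAG2 hairpin (sh2, 3 libraries) were used to estimate the spread and to set values side by side. Each sh1 library was paired with the shNT library of the same replicate number, which gives 3 pairs. Whether replicates were separate cultures is not stated in the labels, so the p-values cover the spread between these samples alone, which may be technical. In bulk RNA, fewer cells with a transcript and less of it per cell cannot be told apart. The hairpin sequences were not analysed here, and no label says that a cell clone was picked.

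STAG2 is a subunit of cohesin, the ring-shaped complex that holds sister chromatids together and organises chromatin into loops, and it is often mutated in bladder cancer. STAG1 can take its place in the ring. A short hairpin RNA is cut by the cell into a guide RNA, which leads the silencing complex to a transcript that it matches. Guide RNAs are also known to lower transcripts that match only their seed, a short stretch near the 5′ end of the guide, most often through sites in the 3′ untranslated region (3′ UTR). Loss of STAG2 and the use of this hairpin cannot be told apart within the sh1 libraries alone.

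Expression was given in FPKM, fragments scaled to transcript length and to the total of mapped fragments. A fold change below is the mean of the 3 paired differences on log2(FPKM + 1), which understates changes of genes with low values. A gene passed where its limma p-value, adjusted by Benjamini-Hochberg over the 11952 genes tested, was under 0.05. The summed FPKM of genes ran from 402762 to 434433 in 5 of the 6 libraries and was 516464 in shNT replicate 1. In that library short transcripts lay above their mean level over the 9 libraries and long ones below it (Spearman's rho of the deviation with length -0.61 over 11524 genes, not independent of each other). The other 5 libraries had -0.064 to 0.27. All 10 urothelial and epithelial markers examined were present. KRT7, a simple epithelial keratin, had at least 811 FPKM and GATA3, a urothelial transcription factor, at least 41.7 FPKM in every library. Endothelial markers reached at most 0.501 FPKM (PECAM1) other than ESAM, at 0.665. Immune markers stayed under 1 FPKM other than CD68, and the summed level of all 13 was 5.51 to 12.8 FPKM in shNT and 3.35 to 7.28 in sh1 libraries. Fibroblast markers summed to 206 to 414 FPKM in shNT and 152 to 290 in sh1 libraries, nearly all from LUM, a matrix proteoglycan, while COL1A2 and POSTN were at 0. The part of these markers in the results was not tested.

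STAG2 itself fell with sh1. Its FPKM was 16.8, 34.7 and 27.7 in shNT replicates 1 to 3 and 3.76, 4.13 and 5.34 in the sh1 replicates. The highest sh1 value lay well below the lowest control value, and the control values varied more than the silenced ones. Within pairs STAG2 lost 77.6%, 88.1% and 80.7% of its FPKM. STAG2 fell by 2.29 on the log2 scale, in 3 of 3 pairs (SE 0.19, limma adjusted p = 0.0185). An exact sign-flip permutation test over 3 pairs gave a two-sided p of 0.25 and an exact permutation test of 3 against 3 libraries gave 0.1, each the smallest that its design allows. On leaving out 1 library the fold change stayed between -2.49 and -2.08, and the call was lost in limma without sh1 replicate 1 (adjusted p = 0.171), sh1 replicate 3 (0.0542), shNT replicate 3 (0.0609), sh2 replicate 1 (0.0573) or sh2 replicate 2 (0.0838).

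The other 15 tested members of the cohesin list did not pass, where 0.644% of all tested genes did. STAG1 had 18.7, 26.2 and 19.0 FPKM in shNT and 28.9, 24.1 and 21.1 in sh1 libraries, and the groups overlapped (log2 fold change 0.21, SE 0.15). The largest differences belonged to CDCA5 (sororin, which protects cohesion), at -0.49 (SE 0.18, limma adjusted p = 0.205), to the kleisin ring subunit RAD21 at -0.36 (SE 0.16, limma adjusted p = 0.283) and to the loader MAU2 at -0.31 (SE 0.12, limma adjusted p = 0.227). SMC1A and SMC3, which form the ring, had 0.28 and -0.12, WAPAL, PDS5A and PDS5B, which help release cohesin, had 0.20, 0.17 and -0.091, and the loader NIPBL had 0.28. ESCO1 and ESCO2, which acetylate cohesin, had 0.015 and -0.13, the deacetylase HDAC8 had 0.15, SGOL1, a protector of centromeric cohesion, had -0.053, and CTCF, which halts cohesin on chromatin, had 0.0095. Signs of this size are not stable: WAPAL, PDS5A and NIPBL were at -0.046, -0.033 and -0.041 without shNT replicate 1, ESCO1 was at -0.0046 after quantile normalization, and SGOL1 was at 0.041 with spike-in scaling.

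Across all genes 77 passed, 0.644% of those tested. Of these 50 were lower with sh1 (0.418%) and 27 higher (0.226%). The falls ran from 0.75 to 2.29 on the log2 scale and the rises from 0.73 to 2.22. All 77 moved the same way in 3 of 3 pairs, against 4370 of all tested genes (36.6%). The shNT and sh1 libraries did not overlap for 75 of them, all but GABRE and GPX3, where 17.7% of all tested genes did not overlap. The 77 were chosen by a paired test on these same libraries. Both counts follow largely from that choice and are no added support. At the edge of the threshold stood PIK3C2G, just inside at an adjusted p of 0.0474 in limma, and PLA2G10, just outside at 0.0501. An unadjusted p under 0.05 was reached by 2183 genes. A positive fold change of any size was held by 5855 of the 11952 tested genes.

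The count of 77 depended on single libraries. In limma 1 gene passed without shNT replicate 1 (STAG2), 291 passed without shNT replicate 2 (165 higher, 126 lower, 71 of them among the 77), and 0 passed without shNT replicate 3. Without sh1 replicate 1, 2 or 3 the counts were 0, 3 and 0, and without sh2 replicate 1, 2 or 3 they were 0, 0 and 1. The number of genes with an unadjusted p under 0.05 was 991 to 2718 in these fits. The direction of all 77 held in each of them. The adjusted p of the 77 ran from 0.0185 to 0.0474.

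**Figure D1:**
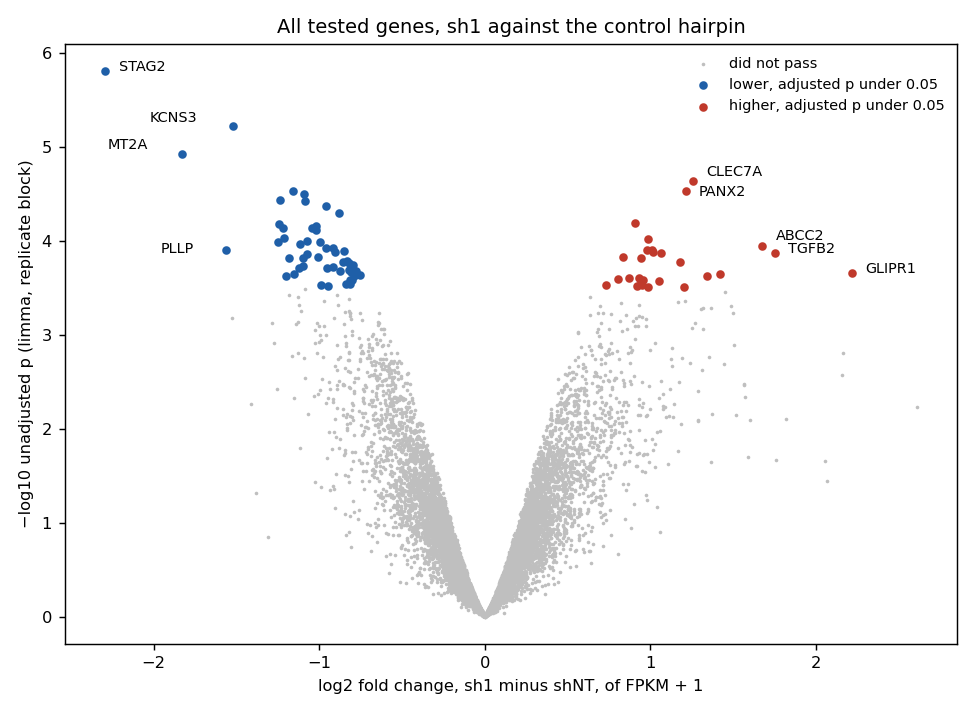
Each point is 1 of the 11952 tested genes, with the log2 fold change of sh1 against shNT on the x axis and the −log10 of the unadjusted limma p on the y axis. Blue points (50 genes, lower) and red points (27 genes, higher) passed at an adjusted p under 0.05, and STAG2 lies apart at the upper left.

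The transcripts that fell were searched for the heptamer AGCTTTA, which an earlier analysis of these data had singled out, so its count is a description and no test. The search covered the sense strand of 1 GENCODE release 29 transcript per gene (GRCh38), of which 11156 tested genes had an annotated 3′ UTR. The sequences below show the heptamer in capitals with 10 bases on each side, 5′ to 3′ on the transcript, and are shown so that the bases around it can be compared. They are the 2 matches in STAG2, 1 in the coding part and 1 in the 3′ UTR, and the first 3′ UTR match of the 10 other lower genes with the largest falls that carry it.
STAG2 coding part, chrX:124071259-124071285, plus strand: tgagttgctcAGCTTTAttttggatca
STAG2 3′ UTR, chrX:124101787-124101813, plus strand: ttgaaagctaAGCTTTAaacttcattt
KCNS3, chr2:17932528-17932554, plus strand: aggttaacacAGCTTTAtaaacctcag
TMEM43, chr3:14142699-14142725, plus strand: gtcactgagaAGCTTTAcaatggatgc
SYNGR2, chr17:78172548-78172574, plus strand: gacaacacccAGCTTTAtgtaaatatt
FOXQ1, chr6:1314521-1314547, plus strand: aacgggctacAGCTTTAttagtggttc
PDCD4, chr10:110898445-110898471, plus strand: gtttatacaaAGCTTTAtttagggggt
CDH1, chr16:68833627-68833653, plus strand: cagttagtatAGCTTTAtactctctcc
SOD2, chr6:159680121-159680147, minus strand: attcctactaAGCTTTAagatttaaaa
RCN2, chr15:76949263-76949289, plus strand: atttgttaccAGCTTTActtttgtgat
ACTL6A, chr3:179588049-179588075, plus strand: tacgtttcatAGCTTTAgtatactcag
NKAP, chrX:119925110-119925136, minus strand: gttctgagaaAGCTTTAcagtgctact

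Of the 48 lower genes with an annotated 3′ UTR, 24 carried the heptamer there (50%), against 1537 of the 11156 tested genes (13.8%). Of the 25 higher genes 5 carried it (20%). The median 3′ UTR length was 1150 bases for the lower genes, 1681 for the higher genes and 1103 for all tested genes. TMEM43 held 3 matches, and CDH1, ACTL6A, POLE3, BLCAP and TMEM64 held 2 each. KCNS3 and ACTL6A carried theirs in short 3′ UTRs of 470 and 398 bases, while the annotated 3′ UTR of SOD2 is 13436 bases long. The other 24 of the 48 had no match in the 3′ UTR searched, among them MT2A, PLLP, VSIG10, TMEM139, SDHD, SRPR, CREB3L4, ADCK2, CITED4, PRIM2 and GABRE. In the coding part 7 of the 48 had a match (14.6%), against 8.78% of all tested genes.

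The 1537 genes with the heptamer in the 3′ UTR had a median sh1 fold change of 0.010, against -0.0040 for the 9619 genes without it. The share of genes with a log2 fold change below -0.5 was 8.39% with the heptamer and 4.95% without it in the sh1 comparison, and 2.99% and 5.29% in the sh2 comparison. With sh2 the medians were 0.10 and -0.029. Genes with the heptamer had longer 3′ UTRs (median 2947 against 911 bases), and the part of length in these values was not tested. The 12 sequences shown share the capitals by choice, and whether the heptamer matches the hairpin was not analysed here.

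After STAG2, the 12 largest falls included KCNS3 and CDH1. KCNS3 encodes a silent potassium channel subunit that modifies the channels it joins. It had 17.8, 16.2 and 20.4 FPKM in shNT and 4.71, 6.92 and 5.46 in sh1 libraries. The groups lay far apart, with little spread inside either. KCNS3 fell by 1.52 (SE 0.15, limma adjusted p = 0.0357), and its call was kept on leaving out shNT or sh1 replicate 2 and lost on leaving out any 1 of the other 7 libraries (limma adjusted p from 0.066 to 0.3). Of the 5 tested potassium channel subunits on the list it was the 1 that passed, and 26 of the 32 listed subunits stayed under 1 FPKM in all 6 libraries. CDH1 encodes E-cadherin, the adhesion protein that joins epithelial cells at adherens junctions. It had 80.9, 102.5 and 75.3 FPKM in shNT and 40.0, 30.8 and 39.0 in sh1 libraries, a fall of 1.21 (SE 0.17, limma adjusted p = 0.0456). CDH1 was the 1 of 29 tested adhesion and junction genes that passed, where 0.644% of all tested genes did. DSG2 was second in that list by p and went the other way, at 0.75 (SE 0.25, limma adjusted p = 0.183), with groups that overlapped. Of the 29 genes, 6 had an unadjusted p under 0.05 in limma, against 2183 of all 11952 tested. Outside the naming rule, the CDH1 partner beta-catenin (CTNNB1) had a log2 fold change of 0.14 (SE 0.13) and P-cadherin (CDH3) had -0.037 (SE 0.15), neither passing. The median over the 29 genes was 0.0057 (0.015 without shNT replicate 1), against -0.0074 over all tested genes.

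PLLP, TMEM43, SYNGR2, VSIG10 and TMEM139 were also among the 12 largest falls. PLLP, a proteolipid of myelin and epithelial membranes, had 4.27, 2.95 and 10.3 FPKM in shNT and 0.625, 1.22 and 1.55 in sh1 libraries. Its fall of 1.56 (SE 0.23) rested on control values that spread widely, with shNT replicate 3 highest. TMEM43, a protein of the inner nuclear membrane, went from 115, 116 and 96.5 FPKM to 39.2, 40.4 and 57.9, a fall of 1.25 (SE 0.18). SYNGR2, a synaptogyrin of vesicle membranes, went from 89.4, 121 and 89.8 to 27.4, 54.8 and 47.2 FPKM, a fall of 1.24 (SE 0.17). In both genes 1 sh1 library stood apart from the other 2, the highest for TMEM43 (replicate 3) and the lowest for SYNGR2 (replicate 1). VSIG10, an immunoglobulin-domain membrane protein, fell by 1.18 and TMEM139 by 1.16. The limma adjusted p of these 5 genes was 0.0456.

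MT2A had the largest fall after STAG2. MT2A is a metallothionein, a small protein that binds zinc and copper. It had 39.2, 40.7 and 70.0 FPKM in shNT and 8.22, 9.36 and 26.7 in sh1 libraries, with the third replicate the highest in both groups. The fall was 1.83 (SE 0.20, limma adjusted p = 0.0456). Metallothionein genes are near-identical copies, so how fragments were split among them is uncertain. SOD2, the superoxide dismutase of mitochondria, is induced by NF-kB. It had 31.2, 36.0 and 59.5 FPKM in shNT and 15.4, 19.6 and 16.6 in sh1 libraries, a fall of 1.20 (SE 0.20, limma adjusted p = 0.0471). SOD2 was the 1 of 13 tested members of the NF-kB cytokine list that passed (0.644% of all tested genes did), and 10 of the 13 had a negative fold change. IL1B, an inflammatory cytokine, had 5.67, 1.80 and 25.7 FPKM in shNT and 2.60, 1.04 and 11.6 in sh1 libraries. Its value was lower in 3 of 3 pairs while the groups overlapped (log2 fold change -0.81, SE 0.15, limma adjusted p = 0.0664). The list's median was -0.62, and the medians taken within pairs 1 to 3 were -0.19, -0.084 and -1.09.

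**Figure D2:**
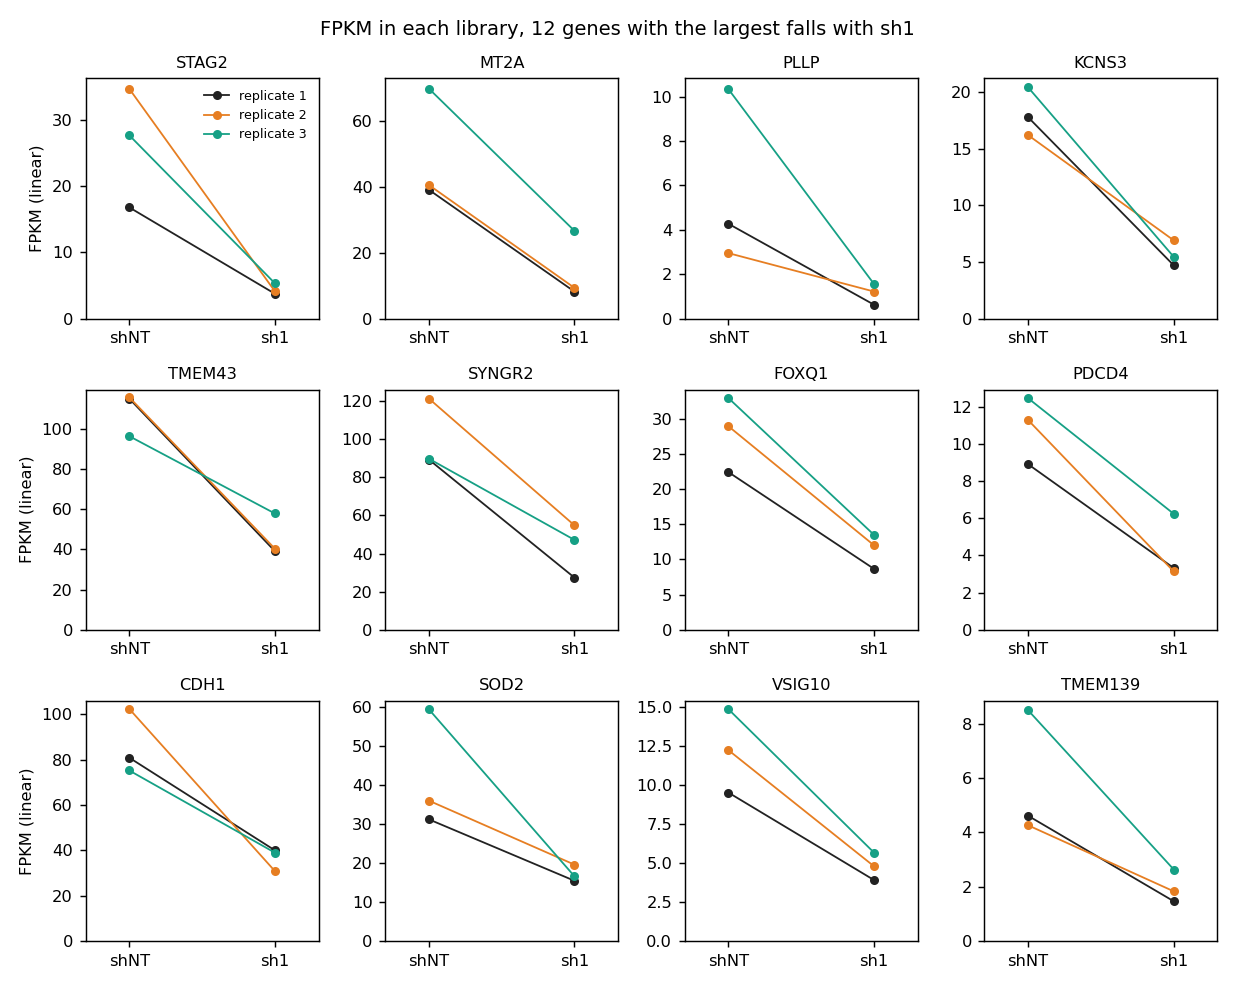
FPKM (linear y axis from 0) in each shNT and sh1 library for the 12 genes with the largest falls that passed, with a line joining the libraries of each replicate pair. Every line slopes downward, and for MT2A, PLLP, SOD2 and TMEM139 the control of replicate 3 stands well above the other 2.

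FOXQ1 and PDCD4 were among the 12 largest falls. FOXQ1, a forkhead transcription factor, had 22.4, 28.9 and 33.0 FPKM in shNT and 8.65, 12 and 13.5 in sh1 libraries (fall of 1.24, SE 0.16). PDCD4 restrains translation by binding the helicase eIF4A. It went from 8.90, 11.3 and 12.4 to 3.32, 3.14 and 6.23 FPKM (fall of 1.22, SE 0.17), with sh1 replicate 3 above the other 2. ACTL6A, an actin-related subunit of SWI/SNF and INO80 chromatin remodelers, went from 85.5, 75.5 and 67.4 to 27.9, 35.9 and 42.1 FPKM (fall of 1.10, SE 0.17, limma adjusted p = 0.0471). It was the 1 of 27 tested remodeler subunits that passed (0.644% of all tested genes did), and 19 of the 27 had a positive fold change. SMARCD1 was second in that list by p, at 0.33 (SE 0.11, limma adjusted p = 0.182). CREB3L4, a membrane-bound transcription factor of the endoplasmic reticulum, fell by 1.01 (SE 0.15) and was the 1 of 30 ATF4 and unfolded protein response genes that passed. The stress factor DDIT3 had -0.56 (SE 0.15, limma adjusted p = 0.119) there. Outside the naming rule, and chosen after their values were seen, the transcriptional regulators NKAP, TSC22D4, MXI1, CITED4 and MLLT3 fell by 1.08, 0.88, 0.87, 0.90 and 0.81.

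Of the lists for mitochondria and cell death, 3 held genes that passed, all lower, where 0.418% of all tested genes passed as lower. VDAC1, the main channel of the outer mitochondrial membrane, had 217, 171 and 232 FPKM in shNT and 96.1, 95.4 and 111 in sh1 libraries, a fall of 1.02 (SE 0.14, limma adjusted p = 0.0456). It was the 1 of 30 tested channel and import genes that passed. VDAC3, a related channel, had 68.2, 46.2 and 45.4 against 33.8, 42.8 and 34.3 FPKM, also without overlap, but did not pass (log2 fold change -0.50, SE 0.18, limma adjusted p = 0.213). SDHD, a membrane anchor of succinate dehydrogenase, went from 75.2, 67.9 and 69.9 to 26.2, 34.2 and 40.8 FPKM (fall of 1.07, SE 0.16). SDHD was the 1 of 58 tested nuclear-encoded respiratory chain genes that passed. COX7C, a subunit of cytochrome oxidase, had 0.62 in the other direction (SE 0.17, limma adjusted p = 0.123). BAK1, which opens the outer mitochondrial membrane in apoptosis, went from 36.8, 28.2 and 30.1 to 14.2, 14.8 and 15.3 FPKM (fall of 1.04, SE 0.14). FADD, the adaptor of death receptors, went from 32.2, 23.9 and 24.5 to 12.9, 13.3 and 14.8 FPKM (fall of 0.91, SE 0.14). For both, the sh1 libraries lay within a narrow range. They were 2 of 24 tested genes of the apoptosis list, and none of the 24 passed upward. HADH, an enzyme of mitochondrial fatty acid oxidation, and ADCK2, a kinase-like mitochondrial protein, also fell, by 0.83 and 1.00. Both were chosen after their values were seen.

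In the secretory pathway list 2 of 35 tested genes passed, both lower, while 23 of the 35 had a positive fold change. Over all tested genes 0.418% passed as lower. SRPR, the receptor subunit that docks ribosomes on the endoplasmic reticulum, had 52.3, 52.1 and 53.9 FPKM in shNT and 23.8, 25.6 and 31.0 in sh1 libraries (fall of 0.96, SE 0.12). RCN2, a calcium-binding protein of the same compartment, went from 50.7, 47.6 and 43.3 to 17.0, 20 and 27.7 FPKM (fall of 1.12, SE 0.18). The control values of SRPR differed by little. In DNA replication 2 of 43 tested genes passed, both lower. POLE3, a histone-fold subunit of DNA polymerase epsilon, went from 44.9, 34.5 and 46.5 to 17.3, 20.3 and 23.0 FPKM (fall of 1.02, SE 0.14), and PRIM2, the large primase subunit, from 15.7, 13.3 and 10.5 to 6.74, 7.66 and 6.09 FPKM (fall of 0.84, SE 0.14).

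GLIPR1 and TGFB2 had the largest rises. GLIPR1, a protein of the CAP family, had 2.08, 8.07 and 0.570 FPKM in shNT and 23.7, 17.9 and 8.44 in sh1 libraries. The highest control (replicate 2) nearly reached the lowest sh1 library (replicate 3), though the groups did not overlap. The rise was 2.22 (SE 0.36, limma adjusted p = 0.0471). TGFB2, a ligand of the TGF-beta family, had 0.199, 0.874 and 0.380 FPKM in shNT and 6.33, 2.89 and 3.15 in sh1 libraries, a rise of 1.75 (SE 0.26, limma adjusted p = 0.0456). The controls of TGFB2 averaged 0.484 FPKM, under the filter of 1 FPKM. It entered the test through its sh1 and sh2 libraries, which favours a rise. TGFBR2, the type II receptor that binds TGF-beta ligands, had 45.5, 44.1 and 39.0 FPKM in shNT and 148, 78.1 and 81.9 in sh1 libraries, a rise of 1.18 (SE 0.18, limma adjusted p = 0.0461). In both, sh1 replicate 1 was the highest library. TGFB2 and TGFBR2 were 2 of 24 tested ligands, receptors and SMADs to pass, both higher, and 13 of the 24 had a positive fold change. Over all tested genes 0.226% passed as higher. None of the 20 tested TGF-beta targets passed. Among those targets THBS1, a matrix glycoprotein, had 229, 187 and 97.1 against 571, 304 and 373 FPKM (1.32, SE 0.26, limma adjusted p = 0.073), and JUNB, an AP-1 factor, had 211, 219 and 221 against 67.7, 113 and 125 FPKM (-1.13, SE 0.20, limma adjusted p = 0.0569). Both had groups that did not overlap, in opposite directions.

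ADAMTS1, a secreted metalloprotease, rose from 10.5, 6.12 and 3.88 to 35.0, 12.1 and 15.3 FPKM (1.42, SE 0.23, limma adjusted p = 0.0471). Its values in both groups were highest in replicate 1. ABCC2, an efflux pump for conjugated compounds, had 1.74, 1.76 and 2.00 FPKM in shNT and 14.3, 4.53 and 7.75 in sh1 libraries (1.68, SE 0.25). The controls of ABCC2 were tight and the sh1 values wide. CLEC7A, the beta-glucan receptor dectin-1, rose from 4.31, 2.57 and 3 to 14.4, 7.71 and 6.75 FPKM (1.26, SE 0.15). PANX2, a pannexin channel, rose from 19.4, 16.7 and 14 to 53.7, 38.4 and 30.6 FPKM (1.22, SE 0.15). ENTPD7, a nucleotide-cleaving enzyme of internal membranes, and PIK3C2G, a class II phosphoinositide kinase, rose by 1.34 and 1.20. The controls of PIK3C2G averaged 0.885 FPKM, under the filter, so it too entered the test through the libraries where it was high. CLEC7A is known from myeloid cells. Of the myeloid markers on the immune list, CD14, ITGAM and TYROBP lay at or below 0.0547 FPKM in all 6 libraries, CSF1R reached 0.419 and CD68, which other cells also express, had 3.99 to 12.1 FPKM in shNT and 2.09 to 6.10 in sh1 libraries. Their part in the CLEC7A result was not tested.

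IGF2BP2, a protein that binds IGF2 and other messenger RNAs, rose from 16.7, 18.8 and 26.6 to 51.8, 32.1 and 48.4 FPKM (1.05, SE 0.17, limma adjusted p = 0.0471). IGF2 itself, a growth factor chosen here after its values were seen, rose from 37.0, 33.9 and 34.9 to 73.2, 50.0 and 89.1 FPKM (0.95, SE 0.16, limma adjusted p = 0.0471). Both had sh1 replicate 2 as the lowest of the sh1 libraries. SCEL, a cornified envelope protein of stratified epithelia, rose by 1.01 and HSPA4L, a chaperone of the HSP110 family, by 1.07. Among the other genes that rose, also chosen after their values were seen, were PFN2 (an actin-binding profilin, 144, 143 and 137 against 263, 235 and 243 FPKM), QSOX1 (a disulfide-forming oxidase), TULP3 (a carrier of receptors into cilia) and MAPRE2 (a microtubule end-binding protein).

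**Figure D3:**
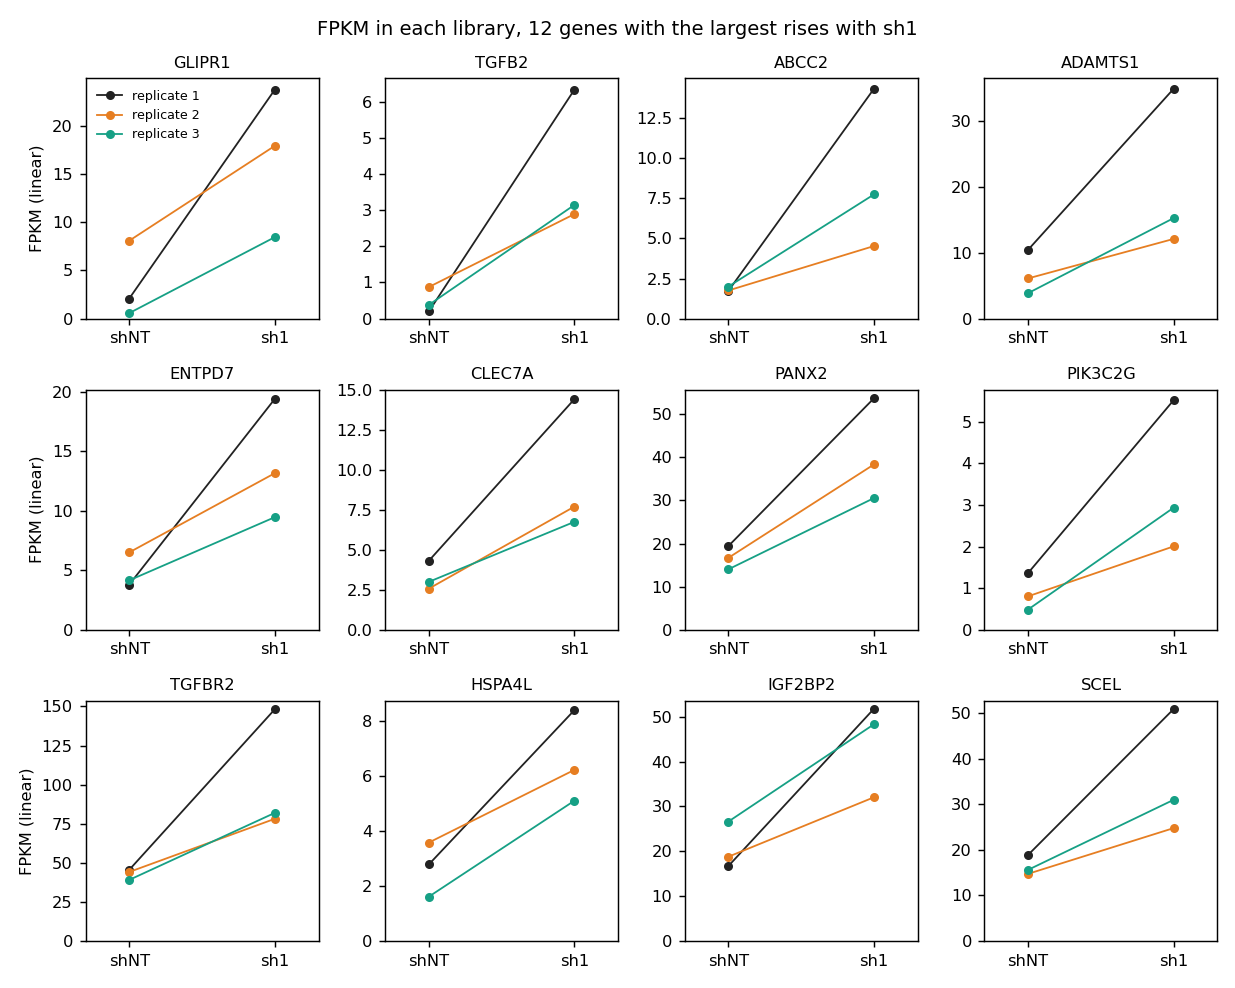
FPKM (linear y axis from 0) in each shNT and sh1 library for the 12 genes with the largest rises that passed, with a line joining the libraries of each replicate pair. Replicate 1 of sh1 is the highest library in all 12 panels.

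The size of the response differed between pairs. Over the 27 genes that rose, the median paired difference was 1.31 in pair 1, 0.77 in pair 2 and 1.06 in pair 3, and pair 1 gave the largest difference for 20 of the 27. Over the 50 that fell the medians were -1.16, -0.86 and -0.88, with pair 1 the largest for 32. Over all tested genes the medians were -0.038, 0.012 and -0.00068. The control of pair 1 is the library whose values trended with transcript length. With that trend taken off each library, an alternative chosen after seeing the data, 120 of 11524 genes passed in limma (42 higher, 78 lower), 69 of them among the 77, and all 74 of the 77 that could be tested kept their direction.

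Values with the second hairpin were set beside these. The hairpins share the shNT libraries, so their fold changes are not independent, and the difference between them was tested directly as sh2 minus sh1. Against shNT 1 gene passed with sh2, STAG2 (0.00837% of those tested, with 2086 genes at an unadjusted p under 0.05 in limma), at -2.43 (SE 0.19). STAG2 did not differ detectably between the hairpins (difference -0.13, SE 0.19, limma adjusted p = 0.746). Between the hairpins 17 genes passed (0.142%). Of the 50 genes lower with sh1, 10 differed between the hairpins, and of the 27 higher, 2 did. The 50 genes had a median of -1 with sh1 and -0.17 with sh2. The 27 genes had a median of 0.99 with sh1 and 0.41 with sh2. Both sets were chosen by their sh1 values, which favours larger changes with sh1 than with sh2, and differences between the hairpins. No conclusion is drawn from these counts and medians.

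CDH1 and MT2A showed the widest gaps between the hairpins among the named genes. CDH1 had 143, 112 and 113 FPKM in the sh2 libraries, above every control, and the difference of 1.72 (SE 0.17) passed (limma adjusted p = 0.0397). MT2A had 77.7, 54.7 and 113 FPKM with sh2, and the difference was 2.52 (SE 0.20, limma adjusted p = 0.0115). KCNS3 had 15.7, 14.9 and 17.2 FPKM with sh2, close to its controls (difference 1.35, limma adjusted p = 0.0452). PDCD4 and VSIG10 differed by 1.3 and 1.34 in the same direction. CLEC7A and PANX2 had 2.69 to 4.21 and 14.1 to 17.1 FPKM with sh2, near their controls (differences -1.25 and -1.3, limma adjusted p = 0.0452 for each). For GLIPR1 and ADAMTS1 the values of the hairpins lay close together: 25.1, 18.7 and 5.12 FPKM with sh2 for GLIPR1, and 37.1, 10.8 and 19.8 for ADAMTS1. Their differences were -0.16 (SE 0.36) and 0.091 (SE 0.23), and neither gene passed with sh2 against shNT (limma adjusted p = 0.203 for each). FOXQ1 had 8.83, 19.5 and 15.0 FPKM with sh2, overlapping its sh1 values (difference 0.27, SE 0.16, limma adjusted p = 0.371). TGFB2 had 2.78, 1.55 and 1.86 FPKM with sh2, all above its controls and below its sh1 values (difference -0.70, SE 0.26, limma adjusted p = 0.212).

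**Figure D4:**
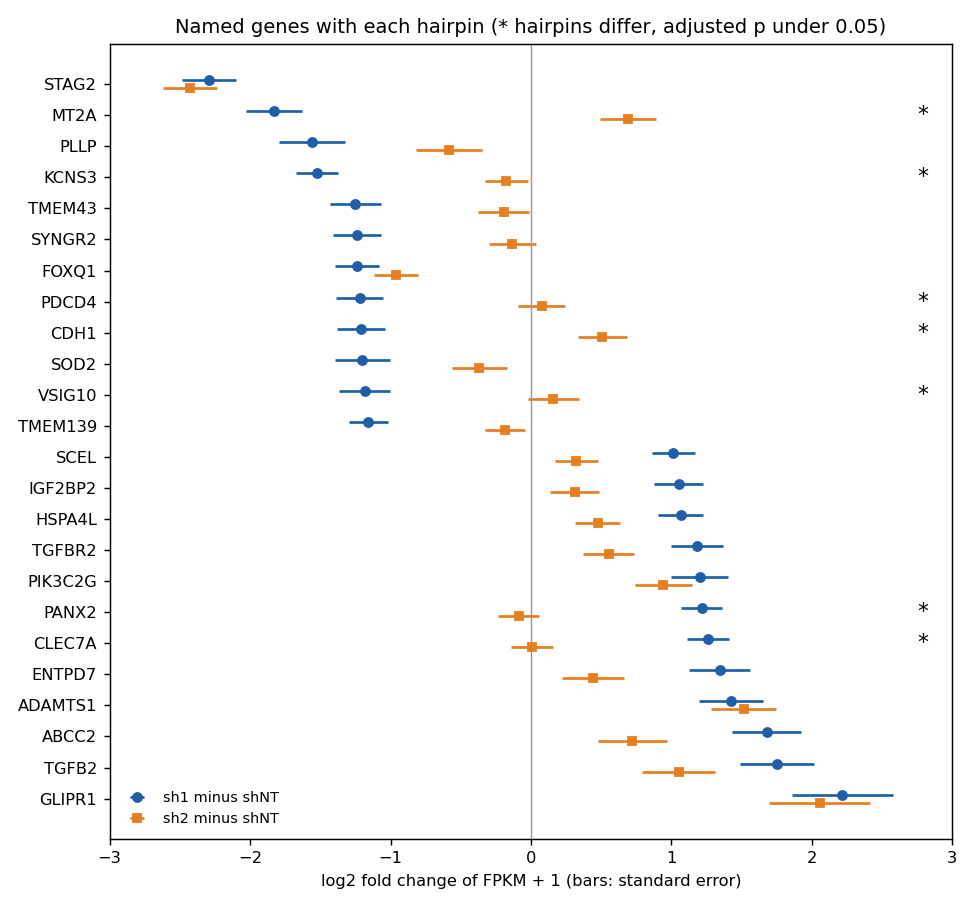
Log2 fold change against shNT (x axis, with standard errors) of the 12 genes with the largest falls and the 12 with the largest rises with sh1 (blue circles), with the value for sh2 (orange squares) below each. Stars mark the 7 genes whose hairpins differed, among them CDH1 and MT2A, and STAG2 lies at -2.29 and -2.43.

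Gene lists for cell state and growth were described by their counts and medians. Their signs stand beside 5855 of all 11952 tested genes with a positive fold change. Ribosomal protein genes had the most uniform sign: 76 of 76 tested members had a negative fold change and 0 passed (10 had an unadjusted p under 0.05 in limma). Their median was -0.48, or -0.17 without shNT replicate 1, and the medians taken within pairs 1 to 3 were -1.01, 0.037 and -0.46. RPL26 had 777, 453 and 772 FPKM in shNT and 330, 401 and 469 in sh1 libraries (-0.71, SE 0.24, limma adjusted p = 0.191). Respiratory chain genes had a median of -0.14 with 50 of 58 negative, and the pairs gave -0.57, 0.21 and -0.097. Without shNT replicate 1 that median was 0.087. DNA replication genes had a median of -0.20 with 36 of 43 negative (-0.076 without that library), and mitotic genes -0.19 with 28 of 34 negative (-0.10 without it). No mitotic gene passed, with TOP2A, the topoisomerase of dividing cells, at -0.40 (SE 0.13, limma adjusted p = 0.161) and the mitotic spindle protein HMMR at -0.57 (SE 0.17, limma adjusted p = 0.153).

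Among markers of cell state no gene passed in 3 lists. Mesenchymal markers had a median of 0.39 (0.67 without shNT replicate 1) with 7 of 10 positive and 0 passing, and the pairs gave -0.13, -0.17 and 1.32. FN1, which encodes the matrix protein fibronectin, had 141, 79.9 and 11.3 FPKM in shNT and 510, 139 and 450 in sh1 libraries (2.61, SE 0.71, limma adjusted p = 0.125). The controls spread over more than a factor of 10, with replicate 3 the lowest. ITGA5, the fibronectin receptor subunit, had 5.02, 4.84 and 3.83 against 8.90, 6.78 and 9.31 FPKM (0.74, SE 0.16, limma adjusted p = 0.0881), with no overlap. Basal and squamous markers had a median of 0.38 with 16 of 20 positive and 0 passing. SPRR3 had the smallest p of that list, with 0.649, 0 and 0.095 against 16.8, 0.301 and 2.43 FPKM (1.82, SE 0.52, limma adjusted p = 0.137). KRT16, a stress keratin, had 34.5, 15.6 and 4.34 against 98.2, 13.2 and 60.1 FPKM. Both genes overlapped between groups. Luminal urothelial markers had a median of -0.019 with 12 of 23 negative and 0 passing. The pairs gave 0.28, 0.26 and -0.41, and the median was -0.10 without shNT replicate 1. XBP1, a secretory-cell factor, had 45.7, 53 and 83.0 against 18.9, 34.2 and 56.1 FPKM (-0.80, SE 0.23, limma adjusted p = 0.136). GDPD3 had -0.54 (SE 0.14, limma adjusted p = 0.109).

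**Figure D5:**
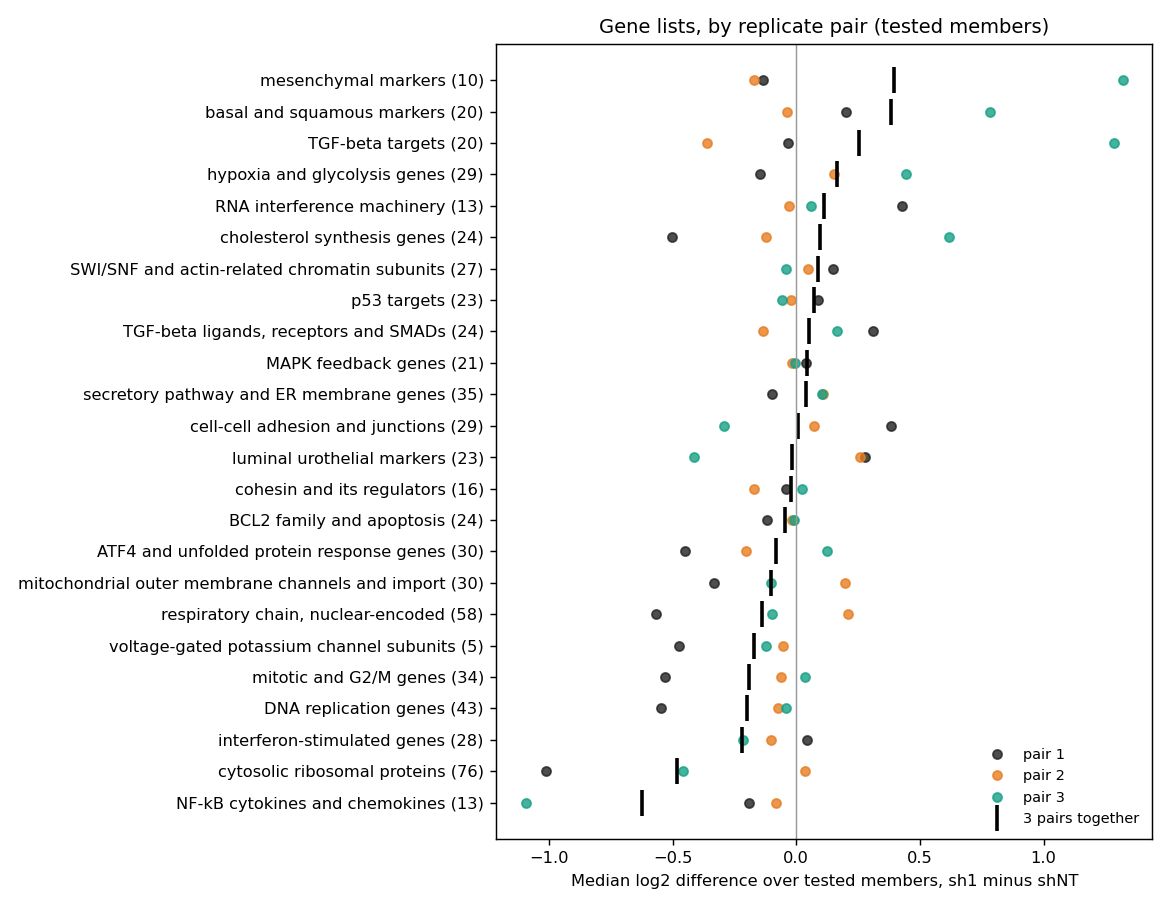
Median log2 difference of sh1 minus shNT over the tested members of each gene list with at least 5 tested members (number in brackets). Coloured points are the 3 replicate pairs and the black bar is the median of the fold changes over all pairs; for ribosomal proteins the pairs lie at -1.01, 0.037 and -0.46.

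Signalling and stress lists had no members that passed beyond those already named. Of 28 tested interferon-stimulated genes 18 had a negative and 10 a positive sign (median -0.22), while the 2 with the smallest p had positive values. DDX58 (RIG-I, a sensor of viral RNA) had 2.39, 3.54 and 2.36 against 13.2, 8.79 and 4.04 FPKM (1.25, SE 0.25, limma adjusted p = 0.073), and IFI27 had 1.03 (SE 0.21, limma adjusted p = 0.0845). The groups of DDX58 did not overlap. Of the 28 genes, 3 had sh1 libraries wholly above shNT and 7 wholly below, where 17.7% of all tested genes did not overlap in either direction. Of the 13 genes of the RNA interference machinery 11 had a positive sign (median 0.11, and 0.042 without shNT replicate 1). DICER1, which cuts precursors of small RNAs, had 4.60, 12.9 and 12.2 against 16.6, 12.6 and 15.3 FPKM, and EIF2C4 (Argonaute 4) had 0.55 (SE 0.18, limma adjusted p = 0.185). The low control value of DICER1 is that of shNT replicate 1. MAPK feedback genes had a median of 0.045, which was -0.041 without shNT replicate 1. They included cyclin D1 (CCND1), at 51.2, 58.8 and 74.0 against 102, 83.8 and 111 FPKM (0.69, SE 0.15, limma adjusted p = 0.0858) and the AP-1 factor FOSL1 at 0.73 (SE 0.16, limma adjusted p = 0.0881).

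Of 23 tested p53 targets 0 passed (median 0.072, and -0.086 without shNT replicate 1). TRIAP1, a small inhibitor of apoptosis, had 29.9, 17.3 and 21.4 against 8.96, 10.8 and 12.1 FPKM (-1.02, SE 0.20, limma adjusted p = 0.0705), and ZMAT3, an RNA-binding protein, had 0.77 (SE 0.17, limma adjusted p = 0.0881). Of 29 tested hypoxia and glycolysis genes 0 passed (median 0.17, or 0.27 without shNT replicate 1, 19 positive), with the oxygen-sensing prolyl hydroxylases EGLN3 and EGLN1 at 0.99 (SE 0.25) and 0.50 (SE 0.13). Of 24 tested cholesterol synthesis genes 0 passed (median 0.094, and 0.20 without shNT replicate 1), and the pairs gave -0.50, -0.12 and 0.62. TM7SF2 and HSD17B7, both enzymes of sterol synthesis, had -0.72 (SE 0.22) and -0.61 (SE 0.20). Pairs 1 and 3 went in opposite directions for this list.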

How the data were processed

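RNA of 9 RT112 libraries in 3 groups was sequenced, per the labels' protocols, from stranded poly(A)+ libraries with ERCC spike-ins on an Illumina HiSeq. The authors deposited FPKM values per gene in 1 table of 23370 entries. Genome build hg19 is named in the submitters' processing notes. No aligner, quantification program or annotation is named in the labels or the table, and depth per library is unknown. The table had lost decimal points: of 10270 values above 0 without a point, 10255 (4.88% of all values) were divided by 1000 and 15 kept, by which reading lay nearer to the gene's other values. For 1329 of those divided no such value existed and the limit was 1000. The 92 spike-ins were dropped, and 27 entries whose names had become dates are not named.

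Genes with a mean of at least 1 FPKM over the 9 libraries (11952) were tested on log2(FPKM + 1), pseudocount 1, with limma 3.58.1 in R 4.3.3 (variance trend, two-sided, Benjamini-Hochberg adjustment). All 9 libraries entered 1 model of group and replicate number. Numbers were taken to pair the samples, which the labels do not state. Deviations from group means correlated at 0.223, 0.118 and 0.432 for shNT and sh1 libraries of the same number. They correlated at 0.182 to 0.491 for the other same-numbered libraries. Between differently numbered libraries the range was -0.629 to 0.205, which overlaps the lowest same-numbered values. The correlation of shNT replicate 2 was 0.172 with sh1 replicate 1, above the 0.118 with its own partner. Deviations cancel out within a group, so positive values for same-numbered libraries bring negative ones for the others, and this check cannot settle the pairing. The model was tested on simulated data. Python 3.11.15 was used for the other steps. Transcripts were matched by symbol or RefSeq synonym for 11524 tested genes.

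Named were STAG2, the cohesin list, and the 12 largest falls and the 12 largest rises among genes that passed and moved one way in all pairs. In each of 27 lists the 2 tested members with the smallest p were also chosen, where that many were tested. Of these, KCNC4 and RPS18 did not pass and are not described above. No endothelial marker was tested. The comparison, lists and heptamer were chosen with earlier results of these data known. Alternatives were the model without pairing, other pseudocounts, filters and scalings, array weights, only 6 libraries, genes without restored values, and leaving out each library. Some genes that passed are not reported here.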

Additional observations from a re-analysis of the deposited data

Results flagged for a closer look

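The hairpins differed for 7 of the 24 genes with the largest changes with sh1. The direct test was sh2 minus sh1 in limma with the replicate block (adjusted p from 0.0115 to 0.0456). Of all tested genes, 17 passed it (0.142%). The 24 genes were chosen by their sh1 values, which also enter the test, so a difference was favoured in advance. The log2 difference was 2.52 for MT2A, 1.35 for KCNS3, 1.3 for PDCD4, 1.72 for CDH1 and 1.34 for VSIG10, where sh2 was higher. It was -1.25 for CLEC7A and -1.3 for PANX2, where sh2 was lower. STAG2 had -0.13 in the same test (adjusted p = 0.746).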

How the results depend on the processing

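The count of 77 genes was 20 without pairing (no replicate block; 2 higher, 18 lower, all among the 77), 0 without a filter on low values (2920 genes at an unadjusted p under 0.05 in limma), 0 with only the 6 libraries in the model (1432), 8 with spike-in scaling, 2 with array weights, 25 without genes that had a restored value, and 120 with the length trend removed. Without a whole replicate set (1, 2 or 3) it was 0, 2 and 0. On leaving out 1 library the count ran from 0 to 291. It was 74 to 93 with the other pseudocounts, filter and scalings. Only 43 of the 77 could be tested in the fit without restored genes. A restored value was held by 25 of the lower and 9 of the higher genes.

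STAG2 was lost in limma without a filter (-2.29, adjusted p = 0.12), with only the 6 libraries (-2.29, 0.131), and without set 1, 2 or 3 (-2.49, -2.04 and -2.35). On leaving out 1 library its fold change ran from -2.49 to -2.08. The direction of the 77 genes held in every setting that tested them. Of the 24 genes with the largest changes, 24 passed without shNT replicate 2, and at most 2 passed without any other single library. Spike-in scaling moved the median of all genes from -0.0074 to 0.081.

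Among genes that did not pass, signs turned as follows. Without replicate set 1, WAPAL was -0.032, PDS5A -0.034, NIPBL -0.059, ESCO1 -0.074 and SGOL1 0.038. PDS5B was 0.052 without set 2 and COL1A1 -0.22 without set 3. With array weights CTCF was -0.029 and ESCO1 -0.066. With the length trend removed CTCF was -0.027, ESCO1 -0.047, SGOL1 0.057 and COL1A1 -0.05. ESCO1 was -0.0046 after quantile normalization and SGOL1 0.041 with spike-in scaling. On leaving out 1 library the values ran from -0.046 to 0.35 for WAPAL, -0.033 to 0.31 for PDS5A, -0.22 to 0.052 for PDS5B, -0.041 to 0.46 for NIPBL, -0.018 to 0.041 for CTCF, -0.12 to 0.11 for ESCO1, -0.23 to 0.0039 for ESCO2, -0.17 to 0.066 for SGOL1 and -0.15 to 0.22 for COL1A1. The cause was not tested.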
